A study of Mus musculus with 38 samples.

Results

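The genes *Rag1*, *Rag2* and *Dntt* encode the enzymes that are particular to antigen receptor gene assembly, and SATB1 and CTCF occupancy around them was examined. The members were taken by name, as 3 of the 22350 protein-coding genes of GENCODE vM1 on chromosomes 1 to 19 and X. All coordinates are in the mouse build mm9, which is NCBIM37. *Rag2* (ENSMUSG00000032864.3) lies on the plus strand of chromosome 2 from 101464875 to 101472685, and *Rag1* (ENSMUSG00000061311.6) on the minus strand from 101478439 to 101489658. The ends of these neighbours face each other across 5.75 kb, so they share 1 window of 225 kb from 101364875 to 101589658, made of both gene bodies and 100 kb on either side. *Dntt* (ENSMUSG00000025014.6) lies on the plus strand of chromosome 19 from 41103765 to 41134013, in a window of 230.2 kb from 41003765 to 41234013. A peak was counted in a window where at least 1 base of it lay inside.

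RAG1 and RAG2 form the recombinase that cuts DNA beside the V, D and J segments of antigen receptor genes, and end joining enzymes seal the breaks. Terminal deoxynucleotidyl transferase, the product of *Dntt*, adds nucleotides without a template at the junctions. All 3 genes are known to be active in developing lymphocytes, including immature thymocytes, and *Rag1* and *Rag2* are known to be controlled together, partly by distal elements upstream of *Rag2*. SATB1 is a chromatin protein abundant in thymocytes, and base unpairing regions (BURs) are AT-rich stretches that unpair easily and to which it binds directly.

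Of the 38 samples of the series, 11 had a peak list. Urea ChIP-seq purifies crosslinked chromatin through urea before immunoprecipitation, so that DNA keeps its directly bound proteins. It was used for SATB1 in thymocytes, brain (cells of the cortex) and skin (primary epidermal keratinocytes), with 2 replicates each, and for CTCF in thymocytes and in skin, with 1 list each. Standard ChIP-seq of SATB1 in thymocytes had 2 replicates, and the BUR reference map was a single in vitro experiment in which SATB1 protein selected fragments of thymus DNA. All cells came from SATB1 wild-type C57BL/6 mice. The home-made antibody 1583D was used for SATB1, except in standard replicate 1, where ab109122 was used. Urea replicates 1 and 2 of thymocytes differed in the amount of 1583D, 4 and 2 µl in the sample titles. The titles of standard replicates 1 and 2 give times of 15 and 150 s. Those of the urea SATB1 replicates give 10 and 12 cycles in brain and 55 and 60 s in skin. The labelled age was postnatal day 13 for thymocytes and skin and 5 and 6 weeks for the brain replicates. However, the titles of standard replicate 1 and of thymocyte CTCF name 6 weeks. The protocol texts give postnatal day 13 for brain and postnatal day 5 for skin, and the study's methods give other ages for both. Brain therefore differs from the other tissues in labelled age, and skin in the age of the protocol texts. Age and tissue thus cannot be told apart for brain by the labels, nor for skin by the protocol texts. The reporting checklist of the study describes its replicates as cells of different animals, and the labels do not tie a sample to an animal. In the titles, both urea SATB1 samples of a tissue share a code number, which differs between tissues. What the code stands for is not given. The replicates may therefore not be independent, and code and tissue cannot be told apart. Peak lists hold no expression, and the labelled cell types could not be checked against markers.

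The lists held 45049 and 38882 urea SATB1 peaks in thymocytes, 117963 and 109154 in brain, 11210 and 10846 in skin, 48175 and 27147 standard SATB1 peaks, 20323 and 31509 CTCF peaks in thymocytes and skin, and 238380 BURs. Fold enrichment is the height of a peak over its local background within its own sample, and is not scaled between samples. Read depths are not in the lists, so a missing peak may be a site below the caller's threshold. With 2 replicates against 2, an exact two-sided permutation test cannot give a p below 0.333, and with 3 tissues of 2 not below 0.0667, so none of the tests here could reach 0.05.

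Urea ChIP-seq of thymocytes gave SATB1 peaks of both replicates at 2 sites around *Rag1* and *Rag2* and at 1 site around *Dntt*, and a peak of replicate 1 alone at 1 more site, in *Rag1*. Each of these 4 sites lay on a BUR. Sequences of these BURs are shown because they are the ones with a called urea SATB1 peak of thymocytes in the windows. Each line gives 240 bases of the plus strand of the BUR, with the longest stretch that lacks G or lacks C in capitals. The lines were placed to hold that stretch, not on the peaks. In the *Rag1* intron the line ends before the thymocyte peak, which starts at 101485362. The line 20.8 kb upstream of *Rag2* ends before the replicate 2 peak, which starts at 101444077. Its capitals also end before the replicate 1 peak, which starts at 101444053. The known sequence context of BURs is a cluster of short segments of this kind, so the longest stretch describes only a part of it.
BUR 69.6 kb upstream of *Rag2*, chr2:101395070-101395309: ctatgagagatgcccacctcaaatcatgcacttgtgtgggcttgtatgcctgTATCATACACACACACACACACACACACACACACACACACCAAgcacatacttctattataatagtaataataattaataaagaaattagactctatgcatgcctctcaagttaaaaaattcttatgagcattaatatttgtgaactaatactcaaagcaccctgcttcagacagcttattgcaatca
BUR 20.8 kb upstream of *Rag2*, chr2:101443830-101444069: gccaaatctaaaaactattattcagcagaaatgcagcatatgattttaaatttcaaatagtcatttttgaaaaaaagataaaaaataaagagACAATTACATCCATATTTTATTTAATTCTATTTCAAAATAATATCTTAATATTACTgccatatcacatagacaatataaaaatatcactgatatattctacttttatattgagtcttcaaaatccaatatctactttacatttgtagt
BUR in the intron of *Rag1*, chr2:101485055-101485294: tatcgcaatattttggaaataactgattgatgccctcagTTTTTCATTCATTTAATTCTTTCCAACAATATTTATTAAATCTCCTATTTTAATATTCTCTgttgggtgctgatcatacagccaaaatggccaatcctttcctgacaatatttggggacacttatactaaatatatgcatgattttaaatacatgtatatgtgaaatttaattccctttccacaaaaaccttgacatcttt
BUR 23.6 kb upstream of *Dntt*, chr19:41079958-41080197: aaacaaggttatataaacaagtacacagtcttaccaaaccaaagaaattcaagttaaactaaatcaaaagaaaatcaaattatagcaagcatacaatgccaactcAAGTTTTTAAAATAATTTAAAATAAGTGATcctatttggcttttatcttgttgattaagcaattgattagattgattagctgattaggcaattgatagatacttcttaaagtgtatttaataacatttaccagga

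The capitals ran for 43, 56 and 61 bases without G in the BURs around the *Rag* genes, and for 30 bases without C in the BUR near *Dntt*. Over the 232068 BURs on chromosomes 1 to 19 and X, the median of the longest such stretch was 43 bases and the median AT content 70.7%. In the first sequence the stretch was a run of CA repeats. AT content over the whole BUR was 63.6%, 71.4% and 68.4% around the *Rag* genes and 72.4% near *Dntt*. The BUR near *Dntt* was the only one of these occupied in every tissue. Its longest stretch was short among BURs, of which 11.0% had a shorter one. Clusters of such segments were not counted.

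The site farthest upstream of *Rag2* lay on chromosome 2 from 101394978 to 101395462, between annotated genes. Its fold enrichment was 8.60 and 10.1 in thymocyte replicates 1 and 2 and 12.5 and 10.3 in brain replicates 1 and 2, and neither skin list had a peak there. The brain values lay above the thymocyte values in all pairs, with means of 11.4 ± 1.53 and 9.32 ± 1.03 (SD, n = 2 each). Because fold enrichment is not scaled between samples, these were not tested against each other.

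The second site, from 101443920 to 101444550, fell in an intron of *B230118H07Rik*, a gene that spans both *Rag* genes on the minus strand. Thymocyte values were 9.52 and 5.98, and brain values 13.3 and 8.84, again with no peak in skin. Here the tissues overlapped, since brain replicate 2 lay below thymocyte replicate 1. The BUR beneath it was the second strongest of the window in vitro, with a fold enrichment of 11.8.

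The third site, from 101485129 to 101485902, was inside the single intron of *Rag1*, 4.13 kb downstream of the *Rag1* start. Brain values were 11.6 and 9.61, while thymocyte replicate 1 had a peak of 4.83 and replicate 2 had none. That thymocyte peak was weak within its own list, where 8.89% of peaks had a lower fold enrichment. A peak in 1 of 2 replicates cannot be called present in thymocytes. Over all protein-coding genes, 11.9% had a urea SATB1 peak of a thymocyte replicate within 5 kb of the start site, and of the members only *Rag1* did, through this peak.

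The site upstream of *Dntt* lay on chromosome 19 from 41079859 to 41080414, in the gap between *Blnk*, which encodes a B cell adaptor protein, and *Dntt*. All 6 urea SATB1 lists had a peak there. Fold enrichment was 15.6 and 12.1 in thymocytes, 11.5 and 12.4 in brain and 12.4 and 11.5 in skin. The group means were 13.8 ± 2.52, 11.9 ± 0.615 and 11.9 ± 0.640 (SD, n = 2 each), and the tissues overlapped. Within their own lists, 86.5% and 74.2% of the thymocyte peaks, 77.2% and 80.3% of the brain peaks and 71.3% and 68.5% of the skin peaks had a lower fold enrichment. Of all BURs, 2.79% carried a peak in all 6 lists, against 1 of 11 in the *Dntt* window and 0 of 17 in the *Rag1*/*Rag2* window.

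**Figure D1:**
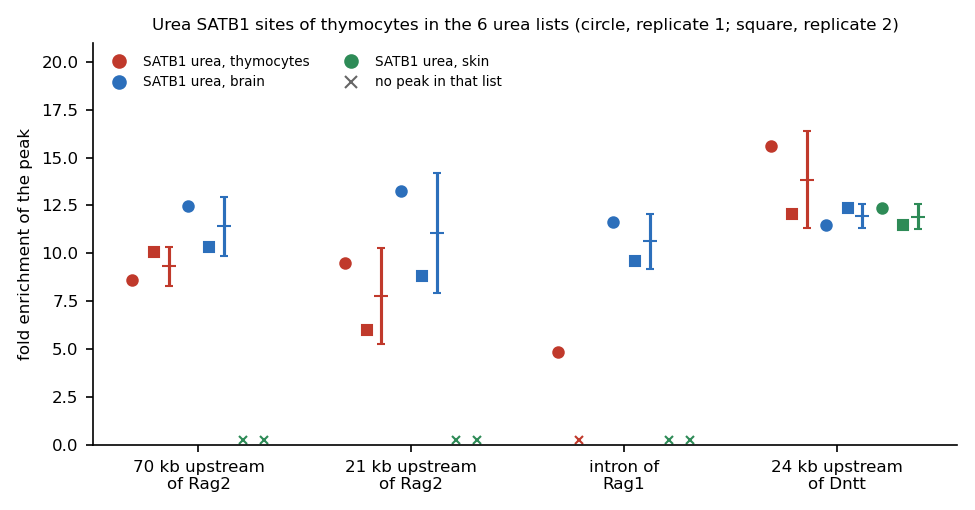
Fold enrichment of the urea SATB1 peak (vertical axis, fold over local background) at the 4 sites with a peak in either thymocyte replicate, for each list. Circles are replicate 1, squares replicate 2, dashes with bars mean ± SD of 2 replicates, and crosses near 0 mark lists with no peak. The site upstream of *Dntt* has points of all 3 tissues between 11.5 and 15.6, whereas the 3 *Rag* sites have no skin point.

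The tissues were then compared by peak number. In the *Rag1*/*Rag2* window, thymocyte replicates 1 and 2 had 3 and 2 urea SATB1 peaks, brain replicates had 8 and 5, and skin replicates had 0 and 0. The groups did not overlap. Brain exceeded thymocytes by 4 peaks (means 6.5 ± 2.12 and 2.5 ± 0.707, SD, n = 2; exact permutation p = 0.333), and thymocytes exceeded skin by 2.5 peaks (exact permutation p = 0.333). Over the 3 tissues together the exact permutation p was 0.0667, the smallest the design allows. The ratio of brain to thymocyte peaks was 2.60 in the window and 2.71 over the whole lists. Per 10000 peaks of its own list, thymocytes had 0.590 ± 0.107 peaks in the window and brain 0.568 ± 0.156 (SD, n = 2), which turned the direction of the difference. With all 6 urea lists cut to 10846 peaks, none kept a peak in this window.

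Around *Dntt* there was 1 urea SATB1 peak in each of the 4 thymocyte and skin lists, and 4 and 3 peaks in the brain lists. Brain exceeded thymocytes by 2.5 peaks (exact permutation p = 0.333), with no overlap, but with all 6 urea lists cut to 10846 peaks by q-value the difference turned to -1 peak. Thymocytes and skin had the same number (difference 0, exact permutation p = 1). The exact permutation p over the 3 tissues was 0.200. Since the skin lists were 3.81 times shorter than those of thymocytes, the equal number gave 0.907 ± 0.0212 peaks per 10000 of the list in skin and 0.240 ± 0.0249 in thymocytes (SD, n = 2).

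As background for these counts, 76.7% of protein-coding genes had a urea SATB1 peak of both thymocyte replicates within their own window of gene body and 100 kb flanks, 88.5% one of both brain replicates and 44.1% one of both skin replicates. The members thus had the presence that most genes have in thymocytes and brain. In skin *Dntt* fell with the 44.1% and *Rag1* and *Rag2* with the rest. The mean of 2.5 thymocyte peaks for *Rag1* and for *Rag2* exceeded that of 56.3% of genes, and the 1 peak of *Dntt* that of 22.1%. Windows differ in length with the gene and overlap between neighbours, so these shares are descriptions.

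Brain occupancy covered all that thymocytes had. All 3 sites near *Rag1* and *Rag2* with a peak in a thymocyte replicate, 1 of them in replicate 1 alone, carried a brain peak. So did the 1 near *Dntt*. This was also the rule over the genome, where 95.5% and 94.9% of thymocyte peaks in replicates 1 and 2 overlapped a peak of a brain replicate. Of the 10 sites in the *Rag1*/*Rag2* window, 7 were found in brain alone, and each of those 7 in a single brain replicate, with fold enrichments from 3.83 to 8.82. One of them, from 101471170 to 101471476, touched an exon of *Rag2*, with a value of 4.41 in brain replicate 1. In the *Dntt* window 3 of 4 sites were found in brain alone, and 2 of these in both replicates. The first, from 41012681 to 41013147 in an intron of *Blnk*, had values of 7.86 and 7.07 and lay on a BUR. The other, from 41110800 to 41111259 in an intron of *Dntt*, 7.27 kb from the start, had 6.52 and 10.6 and lay 28.3 kb from the nearest BUR. It was the only urea SATB1 site inside *Dntt*.

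**Figure D2:**
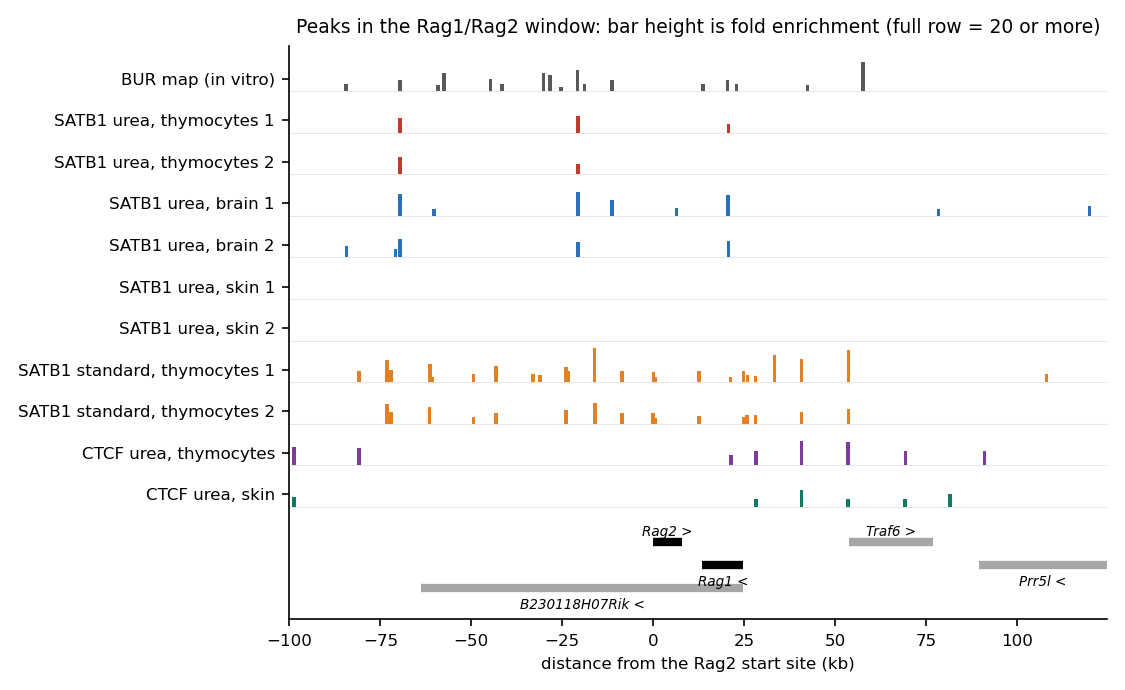
Peaks of the 11 lists in the *Rag1*/*Rag2* window, by distance from the *Rag2* start (kb, plus strand to the right), with genes below (arrowheads give the strand, members in black). Bar height is fold enrichment, with a full row at 20 or more, and bars are drawn at least 1 kb wide. The 3 sites with a peak in either thymocyte replicate recur in brain, which has 7 further sites of 1 replicate each. The skin rows are empty, and standard SATB1 peaks are frequent from upstream of *Rag2* to *Traf6*.

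BURs were more common around *Rag1* and *Rag2* than around *Dntt*, at 17 and 11, which is 7.56 and 4.78 per 100 kb. In the *Rag1*/*Rag2* window 17.6% and 11.8% of BURs carried a peak in thymocyte replicates 1 and 2, 23.5% and 23.5% in brain and 0% in skin. Brain exceeded thymocytes by 8.82 percentage points and thymocytes exceeded skin by 14.7 (exact permutation p = 0.333 for each). In the *Dntt* window the shares were 9.09% in each thymocyte and skin list and 27.3% and 18.2% in brain, a difference of 13.6 points between brain and thymocytes (exact permutation p = 0.333), which turned to -9.09 points in the lists of equal size. Counting BURs bound in both replicates, 2 of 17 were bound in thymocytes, 3 of 17 in brain and 0 of 17 in skin near *Rag1* and *Rag2*, and 1, 2 and 1 of 11 near *Dntt*. Over all BURs the shares were 11.1% in thymocytes, 30.6% in brain and 3.10% in skin. The members' shares were thus close to the genome in thymocytes, and with so few BURs no departure from it could be shown in brain or skin.

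Over the genome, BURs bound in both thymocyte replicates were stronger in vitro than those bound in no urea list, with median fold enrichments of 8.61 and 5.34. In the *Rag1*/*Rag2* window the medians were 6.09 for the 5 BURs with a urea SATB1 peak in any list and 4.34 for the 12 without, and in the *Dntt* window 8.21 for the 3 with and 8.15 for the 8 without. The strongest BURs of both windows were nevertheless among those without a peak. The strongest BUR near the *Rag* genes, from 101522222 to 101522749 in an intron of *Traf6*, which encodes a signalling ubiquitin ligase, had a fold enrichment of 16.8 in vitro and no urea SATB1 peak in any list. In the *Dntt* window the 3 strongest BURs, at 20.6, 20.0 and 14.2, were also without a peak in every list. They lay in introns of *Blnk*, of *Tll2* and again of *Blnk*. The BUR occupied in all tissues near *Dntt* ranked only 8 of 11, with 5.60 in vitro, and 46.0% of all BURs were weaker. The sequences of the strongest BUR of each window are shown for comparison with the occupied ones, with capitals as above.
Strongest BUR of the *Rag1*/*Rag2* window, chr2:101522369-101522608: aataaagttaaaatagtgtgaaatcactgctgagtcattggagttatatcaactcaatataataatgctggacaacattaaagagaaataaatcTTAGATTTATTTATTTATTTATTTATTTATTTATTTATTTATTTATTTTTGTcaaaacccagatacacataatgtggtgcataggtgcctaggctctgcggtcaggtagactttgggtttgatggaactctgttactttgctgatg
Strongest BUR of the *Dntt* window, chr19:41058570-41058809: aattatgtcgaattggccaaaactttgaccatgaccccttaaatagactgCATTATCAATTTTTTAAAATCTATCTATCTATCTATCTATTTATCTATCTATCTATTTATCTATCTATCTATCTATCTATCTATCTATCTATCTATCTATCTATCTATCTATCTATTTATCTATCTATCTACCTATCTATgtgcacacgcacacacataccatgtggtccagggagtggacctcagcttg

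Both sequences hold a simple repeat, of TTTA in the first and of CTAT in the second, and the stretches ran for 52 bases without C and 140 bases without G. The latter was longer than that of 98.8% of all BURs. In the *Dntt* window the median stretch was 34 bases in the 3 BURs with a urea peak and 93.5 bases in the 8 without, whereas in the *Rag1*/*Rag2* window it was 52 bases in the 5 with a peak and 39.5 in the 12 without. The order of the groups was therefore opposite in the windows. Over the genome, the median was 39 bases for BURs bound in both thymocyte replicates and 46 bases for those bound in no list.

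A fold enrichment of at least 10 in vitro, a limit chosen after the values were seen, was reached by 4 BURs in each window. Of these, 1 and 0 were bound in both thymocyte replicates near the *Rag* genes and near *Dntt*, against 22.7% of such BURs over the genome. In both brain replicates 1 and 1 were bound, against 42.5%. No urea SATB1 list had a peak on 3 of the 4 in each window, against 51.0% over the genome.

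**Figure D3:**
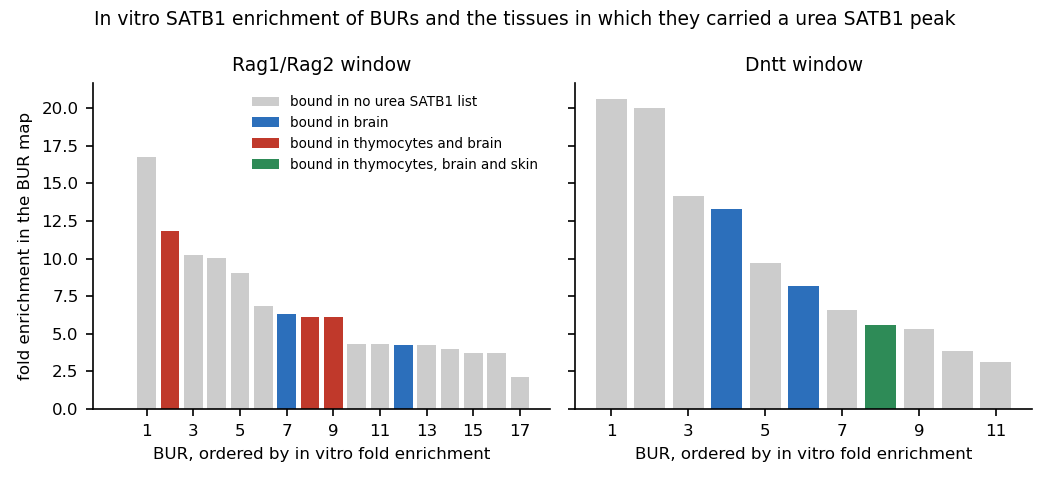
Fold enrichment in the in vitro BUR map (vertical axis, fold over background) of the 17 BURs of the *Rag1*/*Rag2* window and the 11 of the *Dntt* window, in decreasing order, coloured by the tissues in which any replicate had a urea SATB1 peak on them. Grey bars, with no urea peak, include the strongest BUR of each window, and the BUR bound in all tissues stands at rank 8 of the *Dntt* window.

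Standard ChIP-seq of thymocytes gave a much denser picture of the same loci. The *Rag1*/*Rag2* window held 24 and 16 standard SATB1 peaks in replicates 1 and 2, against 3 and 2 urea peaks, a difference of 17.5 in the means (20 ± 5.66 and 2.5 ± 0.707, SD, n = 2; exact permutation p = 0.333). The *Dntt* window held 12 and 8, against 1 and 1, a difference of 9 (exact permutation p = 0.333). The methods did not overlap in either window. Over the whole lists, standard peaks were 0.897 times as many as urea peaks. They were 8 times as many in the *Rag1*/*Rag2* window and 10 times as many in the *Dntt* window, where the ratio rests on 1 urea peak per list. The whole lists also cover DNA far from genes. Over the windows of all protein-coding genes the medians were 6 standard and 2 thymocyte urea peaks, so standard peaks were the more numerous around genes in general. Standard peaks around *Rag1* were more numerous than around 97.5% of protein-coding genes, for which the median was 6. With the length fixed at 100 kb to each side of the start, the mean for *Rag1* and for *Rag2* was 19.5 and exceeded that of 98.3% of genes. For *Dntt* the mean of 10 exceeded that of 71.2% of genes in the first measure and 77.4% in the second.

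All 16 peaks of standard replicate 2 in the *Rag1*/*Rag2* window overlapped peaks of replicate 1. Upstream of *Rag2* there were 8 peaks common to both replicates, from the *Rag2* start to the start of *Traf6* another 8, and beyond that none in 71.1 kb. The strongest by mean fold enrichment lay from 101448585 to 101448992, 16.0 kb upstream of *Rag2*, with values of 19.6 and 11.5. The peak at the *Traf6* start, from 101518350 to 101518907 in replicate 1, had 18.4 and 8.48. The third, from 101391279 to 101392061, 73.2 kb upstream of *Rag2*, had 12.8 and 11.1. Replicate 1 lay well above replicate 2 at the first and the second of these. The standard replicates differ in antibody and in the time given in their titles, and the cause was not tested. Within their own lists, 98.7% of peaks of replicate 1 and 92.5% of replicate 2 were weaker than the first. The urea SATB1 site 69.6 kb upstream of *Rag2* lay 2.02 kb from the nearest peak in either standard replicate.

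Of the standard peaks around *Dntt*, 7 of replicate 1 were common to both replicates. The strongest, from 41113372 to 41114035 in an intron of *Dntt* and 10.0 kb from its start, had values of 10.9 and 10.9. It was followed by the peak from 41010432 to 41010923 in an intron of *Blnk*, with 9.67 and 8.74, and by that from 41096699 to 41097140, 6.84 kb upstream of *Dntt*, with 8.74 and 7.34.

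**Figure D4:**
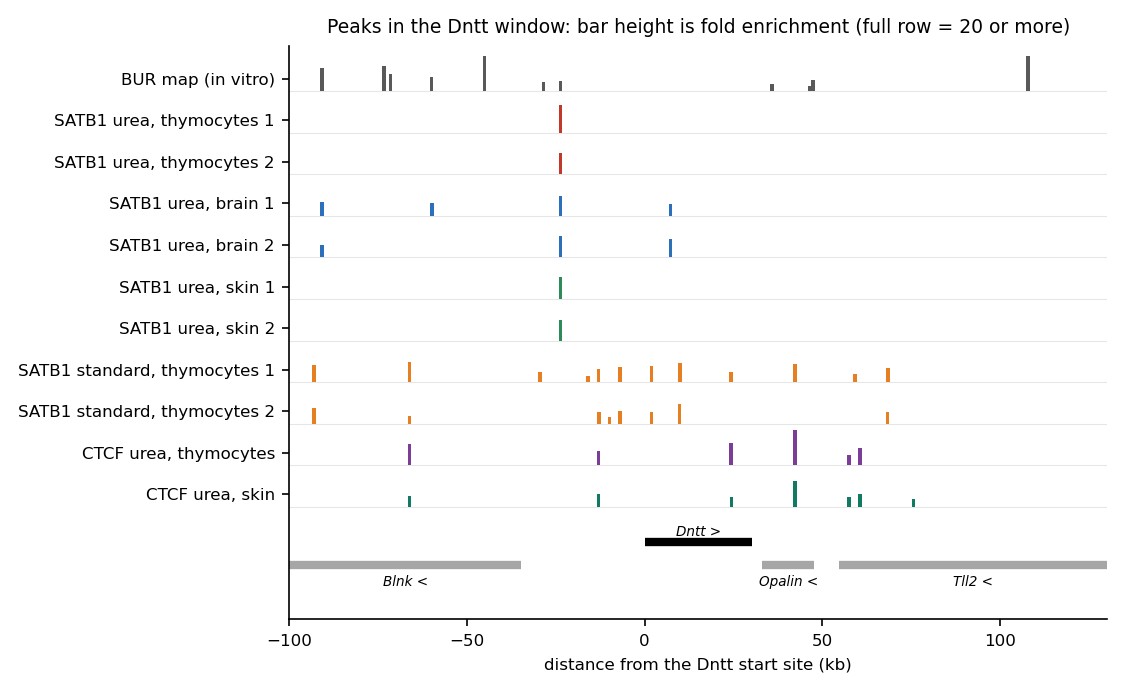
Peaks of the 11 lists in the *Dntt* window, by distance from the *Dntt* start (kb, plus strand to the right), with genes below (arrowheads give the strand, *Dntt* in black). Bar height is fold enrichment, with a full row at 20 or more, and bars are drawn at least 1 kb wide. One urea SATB1 site upstream of *Dntt* is present in all 6 lists, and the CTCF rows of thymocytes and skin share 6 positions.

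Standard SATB1 peaks stood at the start sites of *Rag1* and *Rag2*. At *Rag2* the peak reached from 101464710 to 101465297 in replicate 1, with 5.59, and from 101464706 to 101465073 in replicate 2, with 6.12. A weaker peak followed within the first 1 kb of the gene, with 2.69 and 3.39. At *Rag1* the peak from 101489502 to 101490017 had 6.44 in replicate 1, and that of replicate 2 had 3.59. Both also cover the start of *B230118H07Rik*, at 101489689 on the same strand, so they cannot be assigned to either gene. Further peaks of both replicates lay 1.20 kb upstream of *Rag1*, with 4.00 and 5.17, and 3.28 kb upstream, with 3.77 and 4.70. *Dntt* had no standard peak within 1 kb of its start, and its nearest one lay in the gene, 1.94 kb from the start, with 9.15 and 6.48. Of the members, 2 of 3 thus had a standard peak of both replicates within 1 kb, against 38.3% of protein-coding genes, and 3 of 3 within 5 kb, against 44.4%. Start site peaks are thus common among genes, and with 3 members no departure from these shares could be shown. The *Rag1* peak was not high within its lists, where 50.9% of the peaks of replicate 1 and 1.58% of those of replicate 2 were weaker.

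The bases before the starts are printed because standard SATB1 peaks covered them at *Rag1* and *Rag2* but not at *Dntt*. Letters run 5′ to 3′ along the gene. Capitals mark E-boxes (CANNTG, which reads the same on both strands), the motif of the E proteins that act in lymphocyte development. The *Rag1* sequence ends where *B230118H07Rik* starts.
*Rag2*, chr2:101464625-101464874, plus strand: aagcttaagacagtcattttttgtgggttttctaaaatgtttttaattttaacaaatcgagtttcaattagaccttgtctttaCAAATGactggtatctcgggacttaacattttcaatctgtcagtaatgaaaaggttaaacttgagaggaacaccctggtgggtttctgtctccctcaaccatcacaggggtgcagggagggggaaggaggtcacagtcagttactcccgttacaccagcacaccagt
*Rag1*, chr2:101489690-101489908, minus strand: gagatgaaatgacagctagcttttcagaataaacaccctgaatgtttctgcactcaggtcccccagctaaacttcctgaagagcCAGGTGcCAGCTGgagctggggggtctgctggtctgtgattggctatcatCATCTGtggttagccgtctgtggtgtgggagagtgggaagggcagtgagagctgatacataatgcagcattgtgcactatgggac
*Dntt*, chr19:41103515-41103764, plus strand: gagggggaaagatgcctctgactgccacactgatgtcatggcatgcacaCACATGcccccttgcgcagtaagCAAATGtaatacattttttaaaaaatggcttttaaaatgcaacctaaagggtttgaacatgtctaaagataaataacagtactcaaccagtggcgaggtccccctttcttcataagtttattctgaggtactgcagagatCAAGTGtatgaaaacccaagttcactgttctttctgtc

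Of the 250 bases before *Rag2*, standard peaks covered 165 in replicate 1 and 169 in replicate 2, and they covered all 219 of the bases shown for *Rag1*. There were 1, 3 and 3 E-boxes before *Rag2*, *Rag1* and *Dntt*, and 63.6% of all protein-coding genes held at least 1 in the 250 bases before the start. GC content was 41.6%, 51.6% and 41.6%, below the median of 54% over all genes.

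The methods marked different DNA at these loci. None of the 24 and 16 standard peaks near *Rag1* and *Rag2*, nor of the 12 and 8 near *Dntt*, overlapped a BUR, and over the whole lists 3.78% and 5.20% of standard peaks did. All thymocyte urea peaks in both windows were on a BUR, against 75.8% and 77.6% of those lists. In brain 4 of 8 and 4 of 5 peaks near *Rag1* and *Rag2* and 3 of 4 and 2 of 3 near *Dntt* were on a BUR, against 73.0% and 72.8%. No urea SATB1 site of any tissue overlapped a standard peak. The distance from a site to the nearest peak of standard replicate 1 ran from 0.183 to 24.3 kb near *Rag1* and *Rag2*, with a median of 2.25 kb over 10 sites. Near *Dntt* it ran from 1.76 to 5.86 kb, with a median of 3.79 kb over 4 sites. Sites were merged over the 6 urea lists, and 7 of the 10 and 3 of the 4 were of brain alone. The medians therefore do not compare the methods within thymocytes. For merged sites with peaks of both thymocyte replicates, the distances were 2.02 and 2.19 kb near the *Rag* genes and 5.47 kb near *Dntt*. The closest pair was in the *Rag1* intron. There a weak standard peak of replicate 1 alone, with 2.75, stood 0.183 kb from the urea site, whose near edge is that of a brain peak.

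CTCF, the insulator protein that marks the anchors of many chromatin loops, was more widely spaced. Thymocytes had 8 peaks in the *Rag1*/*Rag2* window and skin 6, and 5 of these were common to both. Thus 62.5% of thymocyte peaks overlapped a skin peak, against 83.5% over the genome, and 83.3% of skin peaks overlapped a thymocyte peak, against 53.5%. Near *Dntt* all 6 thymocyte peaks were shared with skin and 6 of 7 skin peaks with thymocytes. With 1 list in each tissue these differences have no replicate check.

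The CTCF peaks nearest the *Rag1* start lay on either side of it. One, from 101486102 to 101486345, was in the *Rag1* intron, 3.42 kb downstream of the start, with 5.64 in thymocytes and no peak in skin. The other, from 101493039 to 101493426, lay 3.52 kb upstream, with 8.27 in thymocytes and 4.28 in skin. *Rag1* was the only member with a thymocyte CTCF peak within 5 kb of its start, which 21.8% of protein-coding genes had. The intronic peak stood 0.199 kb from the urea SATB1 site of the same intron, the closest approach in either window. That distance runs from a brain peak to a thymocyte CTCF peak. The near edge of the site, at 101485902, is of brain replicate 1, and the peak of thymocyte replicate 1 ends at 101485771. The nearest thymocyte peak upstream of *Rag2*, from 101383871 to 101384166, was 80.8 kb away, with 9.95 and again no peak in skin, so that the stretch from there through *Rag2* to the *Rag1* intron held no CTCF peak in either tissue.

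Around *Dntt* the CTCF peaks flanking the start were at 13.1 kb upstream, from 41090493 to 41091198, with 8.16 in thymocytes and 7.33 in skin, and at 24.4 kb downstream in an intron of *Dntt*, from 41128051 to 41128325, with 12.7 and 5.73. The strongest CTCF peak of either window lay in an intron of *Opalin*, an oligodendrocyte gene, 42.5 kb downstream of the *Dntt* start, with 25.4 in thymocytes and 14.7 in skin. The urea SATB1 site bound in all lists lay upstream of the first of these, 10.1 kb from the nearest thymocyte CTCF peak.

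The letters AGGNGGC, the core of the CTCF motif, were searched on both strands within 100 bases of each summit. They were found at 3 of 8 thymocyte peaks near *Rag1* and *Rag2* and 2 of 6 near *Dntt*, and all 5 were on the plus strand. Over the genome they were found at 44.2% of thymocyte CTCF peaks, in 11.8% of windows of the same length 5 kb downstream of those summits, and at 2.76% and 2.84% of thymocyte urea SATB1 peaks. The strongest matched peak of each window is shown, with the core in capitals. The first lies 16.0 kb upstream of *Rag1* and the second in *Opalin*.
CTCF upstream of *Rag1*, chr2:101505611-101505641, plus strand: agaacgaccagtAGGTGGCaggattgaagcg
CTCF in *Opalin*, chr19:41146178-41146208, plus strand: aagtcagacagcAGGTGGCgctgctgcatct

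SATB1 met CTCF in the standard but not in the urea lists. No urea SATB1 peak of any tissue overlapped a CTCF peak of thymocytes or skin in either window, and over the whole lists 0.653% and 0.728% of thymocyte urea peaks overlapped a thymocyte CTCF peak. Of the standard peaks near *Rag1* and *Rag2*, 20.8% and 18.8% in replicates 1 and 2 overlapped thymocyte CTCF, a mean of 19.8% ± 1.47 (SD, n = 2), against 22.2% and 18.0% of the whole lists. Near *Dntt* the shares were 33.3% and 25%, a mean of 29.2% ± 5.89 (SD, n = 2). Conversely, 5 and 3 of the 8 thymocyte CTCF peaks near *Rag1* and *Rag2*, and 4 and 2 of the 6 near *Dntt*, overlapped a standard peak of replicates 1 and 2, against 52.9% and 24.0% over the genome. 

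The partners of the recombinase were counted in the same way. The list held 9 genes of the end joining step or of the recombinase complex, namely *Dclre1c* (Artemis, which opens hairpin ends), *Prkdc*, *Xrcc5* and *Xrcc6* (the DNA-dependent protein kinase), *Xrcc4*, *Lig4* and *Nhej1* (ligation), and *Hmgb1* and *Hmgb2* (DNA-bending cofactors), and the 3 polymerases *Polm*, *Poll* and *Polb* of the family to which *Dntt* belongs. Urea SATB1 peaks of both thymocyte replicates were found in the windows of 7 of the 9 and of all 3 polymerases, with medians of 2.5 and 2 peaks, beside the 76.7% of all genes with such a peak. *Xrcc4* had the most, 14 and 12 peaks, with 48 and 43 in brain and 85 BURs. It is also the longest gene of the list, from 89913632 to 90229213 on chromosome 13, and these counts were not scaled to window length. *Nhej1* had no urea SATB1 peak in any tissue. In skin, 4 of the 9 and 1 of the 3 had a peak in both replicates, beside 44.1% of all genes. Standard peaks of both replicates lay within 5 kb of the start of 8 of the 9 and 2 of the 3, beside 44.4% of all genes, and the mean number per window ran from 3.5 to 21. *Hmgb1* had 29 and 13 standard peaks, and was the only gene of the list whose mean exceeded the 20 of *Rag1*. *Xrcc4* had only 5 and 3 standard peaks beside its many urea peaks, and *Lig4* had the lowest mean, with 4 and 3.

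**Figure D5:**
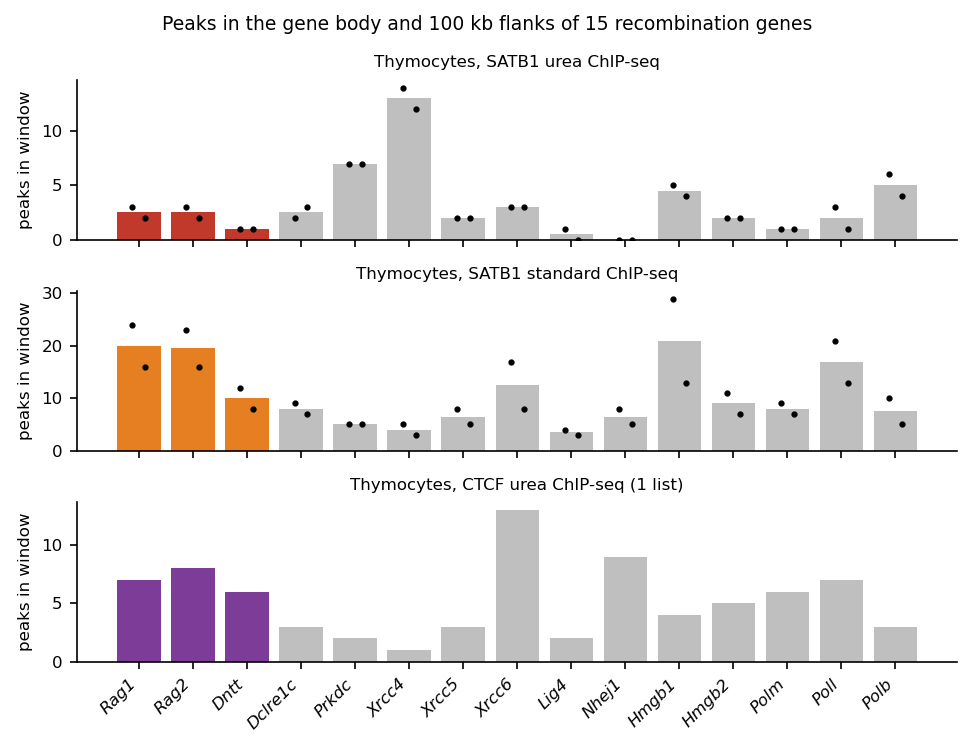
Number of thymocyte peaks (vertical axes, peaks in the gene body and 100 kb flanks) for the 3 members, coloured, and the 12 genes of recombination and end joining or family X polymerases, grey, in urea SATB1 (top), standard SATB1 (middle) and urea CTCF (bottom). Bars are means of 2 replicates and dots the replicates, and CTCF is a single list. *Rag1*, *Rag2*, *Hmgb1* and *Poll* have the highest standard counts. *Xrcc4*, the longest gene, leads in urea peaks, and counts are not scaled to window length.

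The genes whose windows were most like those of the members were found over all 11 lists, by the Euclidean distance between log2 of the peak counts plus 1, leaving out windows that overlap. Nearest to *Rag1* were *Fam69a* at 0.68, *St6gal1* at 0.69 and *Prkcq*, which encodes a T cell kinase, at 0.80, and the median over all genes was 4.21. Their standard counts were 21 and 16, 20 and 13, and 21 and 13, and all 3 lacked a urea peak in skin. Nearest to *Dntt* were *Pfkm* at 0.53, *Nol11* at 0.55 and *Myo9b* at 0.56, with a median over all genes of 3.34. Each of these had 1 urea SATB1 peak in every thymocyte and skin list, as *Dntt* had. All these counts entered the distance, so the likeness of the named genes to *Rag1* and to *Dntt* follows from how they were chosen.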

How the data were processed

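Samples were grouped by the submitters' labels. Per the study's methods and processing notes, the authors aligned reads to mm9 by Bowtie2 2.3.1, keeping unique matches, and used MACS2 2.2.7 for each sample separately, keeping peaks with a q-value up to 0.01. The deposited lists give each peak a score, a fold enrichment (a ratio over local background), a −log10 p-value and a −log10 q-value, and hold no counts or depths, so no counting intervals were made. Here the positions and fold enrichments were used as deposited. Overlap required at least 1 base, and genes came from GENCODE vM1 on the same build. Windows were compared by exact two-sided permutation of the samples (Python 3.11.15, numpy 2.4.6, pysam 0.24.0), and overlap and permutation code was tested on simulated data. Peaks were named if a thymocyte urea SATB1 peak, a CTCF peak nearest to or flanking a member's start, a standard SATB1 peak within 5 kb of a start, or among the 3 strongest standard peaks of both replicates in a window, and other peaks were named after their values were seen. The members and gene lists were chosen with earlier results of these data known. Alternatives changed flanks, q-value limit, overlap rule, list sizes, replicate block and replicates. Inputs, knockouts, Hi-C, 4C and the second CTCF replicate of thymocytes were not analysed here.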

Additional observations from a re-analysis of the deposited data

How the results depend on the processing

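No test here could pass 0.05, so only directions and sizes can be compared. Of 122 alternative values for 12 results, 105 kept the direction (or, for the share of standard peaks on CTCF, stayed within 1 SD). Another 3 reversed it, and 14 moved to or from 0 or beyond 1 SD. The 105 include settings whose outcome was fixed, so their number does not measure stability. The replicate block reuses the same values. Leaving out 1 replicate could turn no difference, since compared groups did not overlap or were equal. For the CTCF shares, each of 2 values lies within 1 SD of their mean. With the 6 urea SATB1 lists cut to 10846 peaks by q-value, no list kept a peak near *Rag1* and *Rag2*, so both differences between tissues became 0, in peaks and in BURs bound, while the site upstream of *Dntt* stayed in the 4 thymocyte and skin lists and left both brain lists, so that brain minus thymocytes became -1 peak and -9.09 points. Per 10000 peaks of the list, an alternative added after seeing the data, brain minus thymocytes was -0.0220 near *Rag1* and *Rag2*, and thymocytes minus skin was -0.667 near *Dntt*. Near *Dntt*, flanks of 200 kb moved thymocytes minus skin from 0 to 2.5 peaks and 3.85 points, and flanks of 50 kb moved brain minus thymocytes to 0 points. The share of standard peaks on CTCF near *Rag1* and *Rag2* was 22.6% and 22.1% with flanks of 50 and 200 kb, 21.4% at a −log10 q of at least 5, 17.7% by summits and 16.7% at 50% of the length, and near *Dntt* it was 22.4% with 200 kb. The causes of these moves were not tested, beyond what the settings themselves fix. Taking replicate numbers as a block changes only the p-value, since the differences rest on the same values. For the 4 peaks of brain minus thymocytes near *Rag1* and *Rag2* it gave a permutation p of 0.500, the smallest possible. With 2 pairs, the numbers share only a label and no pairing could be shown.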
